A study of Homo sapiens with 10 samples.

Results

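The V1PAKI line was compared with its control, Ctrl, on day 4 of a neural differentiation, after embryoid body culture and before neural medium. The members are all genes with at least 1 FPKM (fragments scaled by transcript length and by the library's total) in either day 4 library. They number 13426 of the 42335 genes in the deposited table, or 31.7%. Each gene's difference is log2((V1PAKI + 1)/(Ctrl + 1)), so 1 stands for a doubling of FPKM + 1, and differences of genes with low values are understated. With 1 library per line there was no test. A gene is called higher or lower here where the difference reached 1 in that direction, which describes these 2 libraries and has no replicate check.

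Both lines were H9, an established line of human embryonic stem cells in wide use. Ctrl is labelled wild type and V1PAKI carries the genotype label SOX1-OT V1 PAKI, whose last term the labels do not spell out, nor whether it is 1 clone. Each line gave 1 library at d0, d4, d10, d16D and d16V, with no label for a repeated culture. Per the labels' protocols, colonies of both lines were kept in suspension as embryoid bodies in stem cell medium lacking FGF-2. Neural medium came on day 4, attachment on day 7, and for a ventral arm Sonic hedgehog with its agonist SAG from day 10. The day 4 cells of both lines are labelled NP cells derived from the stem cells. The question put to the data was whether V1PAKI trails Ctrl in anterior neural induction at day 4, with each line's own course from d0 as the scale.

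Cells of the early embryo take an anterior neural fate when NODAL, BMP and WNT signals are held low. Regional transcription factors then mark the future forebrain and eye field: the homeodomain proteins OTX2, SIX3, HESX1, LHX5 and RAX, and the zinc finger repressor FEZF1. Retinoic acid and WNT give posterior identity, and CYP26 enzymes, which break down retinoic acid, shield the anterior plate.

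Genes of the anterior neural plate were below Ctrl in V1PAKI. All 11 members of an anterior neural plate and forebrain list that reached 1 FPKM were lower in V1PAKI, with a median difference of -0.90, beside -0.05 over all genes compared. The floor let in 2 of them, OTX1 and LHX2, through Ctrl alone. The other 9 reached 1 FPKM in both libraries, and their median was -0.93. The list was chosen with earlier results of these data known. It counts LHX5 and FEZF1 beside their overlapping antisense RNAs, so the 11 are not fully separate. The homeobox gene SIX3 was 2.57-fold lower and FEZF1 2.23-fold lower. Pluripotency genes had a median of 0.09 with none past 1, and endoderm genes were higher on balance, with a median of 0.46. Over the whole comparison few genes differed: 222 genes passed 1 in either direction, or 1.65%. Of these, 107 were higher (0.797% of the genes compared) and 115 were lower (0.857%).

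By the share of genes past 1, both lines were closest at d4. The share of genes past 1 was 4.55% at d0, 11.2% at d10, 8.96% at d16D and 2.9% at d16V. The SD of the differences over genes was 0.32 at d4, against 0.46 at d0 and 0.66 at d10. At d4 the middle of the distribution was narrow, with an interquartile range of -0.18 to 0.10. Genes lower by any amount made up 59.7% of those compared, so a slight excess of lower values is the background. FPKM summed to 246809 in Ctrl and 244152 in V1PAKI at d4, with 23.8% and 23.4% of it from mitochondrially encoded genes. In V1PAKI 14113 genes were listed at 0, and in Ctrl 12427. The number of reads behind each library is unknown, so no counting interval can be given.

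**Figure D1:**
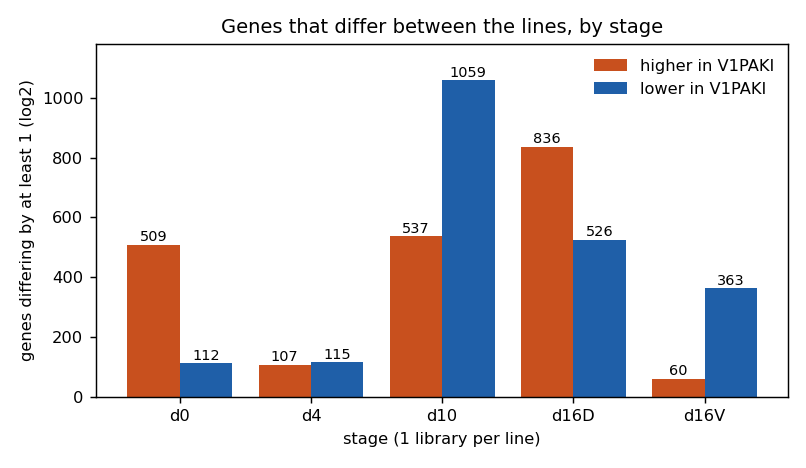
Number of genes (y axis) with a log2 difference of 1 or more between the lines at each stage (x axis), higher in V1PAKI in orange and lower in blue, 1 library per line and stage. At d4 there were 107 higher and 115 lower, fewer in all than at any other stage.

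The transcripts named in the study's title gave no check of the genotype at day 4. SOX1-OT, a noncoding transcript annotated downstream of SOX1 on chromosome 13, was at 0.0159 in Ctrl and 0.0167 FPKM in V1PAKI. SOX1, a transcription factor of neural progenitors, was at 0.0605 and 0.0613 FPKM. HDAC10, a histone deacetylase family member on chromosome 22, was at 2.74 in Ctrl and 2.68 FPKM in V1PAKI. SOX1-OT and SOX1 were thus close to 0 in both lines, and HDAC10 differed by -0.02 on the log2 scale.

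The NP label was set beside markers of neural progenitors and stem cells. PAX6, a defining factor of neural progenitors, was at 0.378 in Ctrl and 0.0743 FPKM in V1PAKI. POU5F1, which encodes the pluripotency factor OCT4, remained at 268 in Ctrl and 328 FPKM in V1PAKI. SOX2, shared by stem cells and neural progenitors, stood at 128 and 120 FPKM. By these markers both day 4 libraries held abundant pluripotency transcripts and almost no SOX1 or PAX6. PAX6 and the genes named next were chosen after their values were seen. Of 28 genes on a list of early neural ectoderm and progenitors, 16 reached 1 FPKM at d4 and 12 did not. SOX21 rose from 0.579 at d0 to 19.04 FPKM in Ctrl and from 0.645 to 14.9 in V1PAKI. NES, already at 30.4 and 45.3 FPKM at d0, was at 53.2 in Ctrl and 49.8 in V1PAKI. SOX1 and PAX6 thus do not stand for the whole list.

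To show the regulatory sequence of anterior genes that were low together, the promoter windows of HESX1 and FEZF1 are printed from RefSeq (GRCh38.p14), each 250 bases before to 50 after an annotated start, 5′ to 3′ on the gene's strand. Capitals mark TAATTA, a core recognised by many homeodomain proteins, searched on both strands, where it reads the same. HESX1 has another annotated start farther upstream, and FEZF1 a neighbouring one.
HESX1, chr3:57199929-57200228, minus strand: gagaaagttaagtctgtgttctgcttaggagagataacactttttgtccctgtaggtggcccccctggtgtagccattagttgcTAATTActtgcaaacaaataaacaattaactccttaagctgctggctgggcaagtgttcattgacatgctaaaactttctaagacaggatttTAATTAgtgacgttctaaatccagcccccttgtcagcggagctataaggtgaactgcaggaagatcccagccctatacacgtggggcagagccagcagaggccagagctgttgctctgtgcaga
FEZF1, chr7:122304701-122305000, minus strand: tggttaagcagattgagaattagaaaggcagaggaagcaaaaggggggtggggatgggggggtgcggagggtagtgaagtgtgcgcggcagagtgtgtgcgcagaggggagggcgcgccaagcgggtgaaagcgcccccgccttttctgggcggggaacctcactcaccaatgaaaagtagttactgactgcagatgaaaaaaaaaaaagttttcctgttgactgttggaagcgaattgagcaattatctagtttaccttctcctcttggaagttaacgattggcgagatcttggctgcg
The HESX1 window printed holds TAATTA 2 times, and the other HESX1 window and both FEZF1 windows do not hold it. Of the 21 anterior genes, 14 had at least 1 window in the table. Of their 19 windows, 4 held TAATTA, as did 4.84% of all 35116 windows. A match is a run of letters and not a binding site.

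The 11 anterior genes are described next, beginning with those nearly absent from stem cells. LHX5 (GENCODE 29, GRCh38, chr12:113462034-113472280, minus strand) encodes a LIM homeodomain factor of the anterior neural plate. It was listed at 0 in Ctrl and at 0.0295 FPKM in V1PAKI at d0, then at 20.6 in Ctrl and 10.5 FPKM in V1PAKI at d4. V1PAKI thus made 51.1% of the gain in FPKM that Ctrl made, and its day 4 difference was -0.90. LHX5-AS1, the antisense RNA whose annotation overlaps LHX5 by 278 bases, was listed at 0 in both d0 libraries. On day 4 it was at 17.9 in Ctrl and 8.92 FPKM in V1PAKI, a difference of -0.93. Because the use of strand in the counting is not given in the sources used here, reads from the shared bases cannot be assigned to either gene.

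SIX3 (chr2:44941898-44946077, plus strand) encodes a homeodomain factor that represses WNT signalling in the forebrain. Its d0 level was 0.101 in Ctrl and 0 FPKM in V1PAKI, and its d4 level 15.3 and 5.95 FPKM. SIX3 had the largest difference of the list, -1.23, and V1PAKI made 39.1% of the Ctrl gain. SIX3-AS1, whose annotated start lies 25 bases from that of SIX3, stayed under 1 FPKM, at 0.667 in Ctrl and 0.336 in V1PAKI. AC012354.3, an unclassified transcript whose start is 13502 bases from that of SIX3, was listed at 0 in both lines at d0. It was at 9.10 in Ctrl and 4.99 FPKM in V1PAKI at d4, so it was low in V1PAKI along with its neighbour. RAX, the homeobox gene of the eye field, went from 0.0190 to 2.79 FPKM in Ctrl and from 0.104 to 1.49 in V1PAKI.

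FEZF1 (chr7:122301394-122310691, minus strand) was already expressed in stem cells, at 8.72 in Ctrl and 7.21 FPKM in V1PAKI. By d4 it stood at 38.2 in Ctrl and 17.1 FPKM in V1PAKI, a difference of -1.11, with 33.7% of the Ctrl gain made. FEZF1-AS1, annotated over 6420 bases of FEZF1 on the other strand, was at 17.1 in Ctrl and 7.64 FPKM in V1PAKI. FEZF1-AS1 was the one member whose V1PAKI level at d4 lay under its own d0 level, 9.72 FPKM. The overlap again leaves the strands of this pair unresolved.

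HESX1 (chr3:57197838-57227606, minus strand), a homeodomain repressor needed in the anterior forebrain and pituitary, gained little in V1PAKI. Ctrl went from 4.37 to 13.1 FPKM and V1PAKI from 5.59 to 6.37, or 8.99% of the Ctrl gain. OTX2, which specifies forebrain and midbrain, stood at 8.16 in Ctrl and 10.7 FPKM in V1PAKI at d0. At d4 it was at 40.0 in Ctrl and 26.5 FPKM in V1PAKI, a difference of -0.58. OTX2 was the most abundant member in both lines at d4 and, unlike HESX1, had risen by more than 1 on the log2 scale in V1PAKI as well.

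The remaining 3 anterior genes above the floor were low in both lines. OTX1, the paralogue of OTX2, was at 1.44 in Ctrl and 0.605 FPKM in V1PAKI. LHX2, a LIM homeodomain factor of eye field and cortex, was at 1.43 and 0.873 FPKM. SP8, a zinc finger factor of the forebrain, was at 1.72 and 1.52 FPKM, the smallest difference of the 11 at -0.11. The other 10 list members stayed under 1 FPKM in both libraries. Among them NKX2-1, a ventral forebrain factor, was listed at 0 in both.

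Counted as a list, 9 of the 11 anterior genes were lower by at least 0.5, where 4.47% of all genes were. None was higher by that much, where 3.37% of all genes were. The counts in this paragraph take LHX5 and FEZF1 and their overlapping antisense RNAs as separate members. Of the 9 anterior genes with at least 1 FPKM in both libraries, 8 were lower by at least 0.5, beside 2.66% of all 12293 genes that met that stricter floor. With no floor, 18 of the 21 list members were below Ctrl and 2 above, with a median of -0.37 over all 21. By at least 1, SIX3, FEZF1 and FEZF1-AS1 were lower, and under median-of-ratios scaling FEZF1-AS1 was at -0.98 and no longer past 1. The summed level of the 21 list members went from 30.9 FPKM at d0 to 171 at d4 in Ctrl and from 35.4 to 88.7 in V1PAKI. The median change from d0 to d4 was 1.90 in Ctrl and 1.14 in V1PAKI, and it was the smaller in V1PAKI for 11 of 11 genes. That count has to be read against 67.3% of all genes compared, whose change was also the smaller in V1PAKI. At d0 the anterior median difference was 0.12, close to the 0.10 of all genes compared. Below Ctrl at d0 were 3 of the 11 genes, where 37.8% of all genes were. LHX5, LHX5-AS1, SIX3, OTX1, RAX and LHX2 were far under 1 FPKM in both d0 libraries. With a pseudocount of 1 their d0 differences had to be near 0. The d0 median is that of RAX, at 0.0190 in Ctrl and 0.104 FPKM in V1PAKI, so it says little about stem cells. In bulk RNA, fewer cells of a type and less RNA per cell cannot be told apart.

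**Figure D2:**
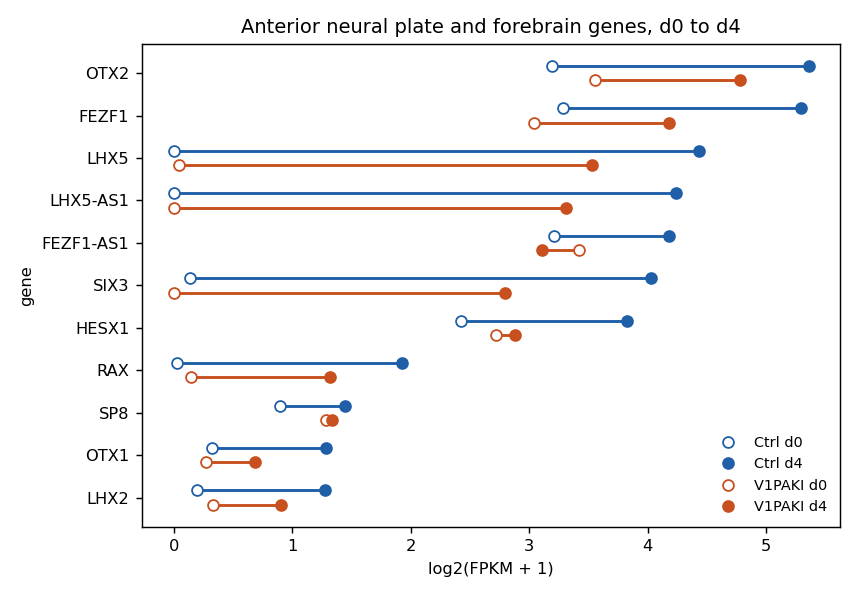
Level of each of the 11 anterior genes (y axis) as log2(FPKM + 1) (x axis) at d0 (open points) and d4 (filled points), Ctrl in blue and V1PAKI in orange, 1 library per point. Every filled orange point lies left of its blue partner, from -0.11 for SP8 to -1.23 for SIX3, and for FEZF1-AS1 the V1PAKI line runs backwards.

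At d10 the order of the lines was the opposite for most of these genes. The median difference was 0.70, and 9 of the 11 genes were above Ctrl, beside 47.7% of all genes compared at d4, whose median at d10 was -0.03. SIX3 was at 32.5 in Ctrl and 76.3 FPKM in V1PAKI. HESX1 was at 6.53 FPKM in Ctrl, while V1PAKI stood at 40.6 FPKM. OTX1 and SP8 were the exceptions, with 3.14 against 1.77 FPKM for OTX1 and 9.08 against 4.68 for SP8. Such a change of sign was not particular to the anterior list. The early neural ectoderm and progenitor list had a median of -0.35 at d4 and 0.71 at d10, with 13 of 16 genes above Ctrl. The endoderm list had a median of 0.46 at d4 and -1.48 at d10, with 1 of 12 genes above Ctrl. The libraries of d4 and d10 are separate samples of each line, with 1 library at each stage.

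Genes of early neural ectoderm and progenitors showed a smaller difference of the same sign. Of 28 on the list, 16 reached 1 FPKM. Of these, 12 were below Ctrl, where 59.7% of all genes were, and the list median was -0.35. By at least 0.5, 6 were lower, where 4.47% of all genes were, and none higher, where 3.37% were. None passed 1. The genes named from here to the end of this paragraph were chosen after their values were seen. ZIC2, a zinc finger factor of the neural plate, went from 52.5 to 50.6 FPKM in Ctrl and from 66.9 to 27.1 in V1PAKI. ZIC5, 9863 bases from ZIC2 between the annotated starts, was at 17.5 in Ctrl and 10.6 FPKM in V1PAKI at d4. SOX21, a SoxB2 factor, came up from 0.579 to 19.04 FPKM in Ctrl and from 0.645 to 14.9 in V1PAKI, so its course was nearly shared.

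**Figure D3:**
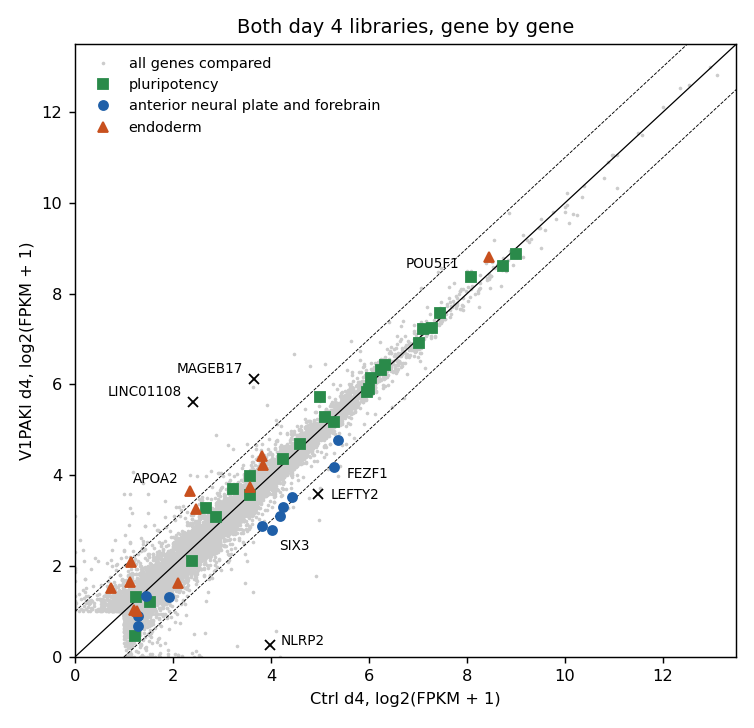
Level of each of the 13426 genes in V1PAKI (y axis) against Ctrl (x axis) at d4, both as log2(FPKM + 1), with the line of equality and dashed lines at a difference of 1; coloured symbols are 3 gene lists and crosses other named genes. Pluripotency genes lie inside the dashed lines, anterior genes on the lower side and most endoderm genes on the upper side.

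The pluripotency genes were near their Ctrl levels. Of 27 genes, 26 reached 1 FPKM and none passed 1 in either direction, with 16 above and 10 below Ctrl. Among all genes compared, 59.7% were below Ctrl. NANOG, a core factor of the stem cell state, was at 10.8 in Ctrl and 14.8 FPKM in V1PAKI. UTF1, a chromatin factor of stem cells, had the most positive difference, at 31.0 against 51.5 FPKM or 0.71. KLF4 followed, at 5.397 and 8.77 FPKM, while DPPA5 was the lowest, at 1.33 and 0.364 FPKM. DNMT3B, the de novo DNA methyltransferase, was at 510 and 470 FPKM, and LIN28A at 427 and 391. Abundant members of the list thus differed little, and the largest differences were in opposite directions.

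In the NODAL pathway the lower genes were feedback inhibitors. LEFTY2, a secreted inhibitor of NODAL that NODAL signalling itself induces, was at 2.32 in Ctrl and 3.01 FPKM in V1PAKI at d0. At d4 it was at 30.0 in Ctrl and 11.1 FPKM in V1PAKI, a difference of -1.36. LEFTY1, its neighbour on chromosome 1 with the same role, was at 34.8 and 16.5 FPKM, a difference of -1.03. These genes are close copies of each other, so the split of reads between LEFTY1 and LEFTY2 is uncertain. CER1, a secreted antagonist of NODAL, BMP and WNT, was at 14.8 in Ctrl and 9.76 FPKM in V1PAKI.

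The ligand and its transducers lay closer to Ctrl, except the coreceptor CFC1. NODAL was at 8.31 in Ctrl and 7.86 FPKM in V1PAKI. The coreceptor TDGF1 was at 137 and 149 FPKM, and the other coreceptor CFC1 at 1.83 and 3.56, a difference of 0.69. FOXH1, the DNA-binding partner of SMAD2, was at 45.5 and 49.9 FPKM. Of 15 members compared, 2 were lower by at least 1, where 0.857% of all genes were, and none higher. The median was -0.07. The lower pair were LEFTY1 and LEFTY2, and under median-of-ratios scaling LEFTY1 was at -0.94 and no longer past 1.

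Genes that handle retinoic acid were divided by member. CYP26C1, one of the enzymes that degrade it, was at 1.88 in Ctrl and 0.0396 FPKM in V1PAKI, a difference of -1.47, and at 1.55 against 0.00930 FPKM at d10. CYP26A1, the adjacent gene for a related enzyme on chromosome 10, went from 0.822 to 47.5 FPKM in Ctrl and from 4.15 to 33.9 in V1PAKI. CRABP2, which carries retinoic acid to the nucleus, was at 109 and 73.7 FPKM at d4, while its relative CRABP1 was at 120 and 157. CYP26C1 was the member that passed 1, and the median of the 11 compared was 0.01.

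Posterior genes were mostly at low levels in both lines. Of 20 genes of midbrain, hindbrain and posterior identity, 5 reached 1 FPKM, none passed 1, and their median was -0.24. The genes named next were chosen after their values were seen. IRX2, the most abundant of the 5, went from 2.57 to 27.5 FPKM in Ctrl and from 1.00 to 21.3 in V1PAKI. CDX2, a posterior homeobox factor, was at 0.176 in Ctrl and 0.0911 FPKM in V1PAKI at d4.

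No gene of the FGF feedback or BMP lists passed 1 at d4. DUSP6, a phosphatase induced by FGF signalling that shuts off MAP kinase, decreased from 60.1 to 1.57 FPKM in Ctrl and from 83.9 to 1.05 in V1PAKI. ETV4, a transcription factor downstream of FGF, was at 12.9 in Ctrl and 20.1 FPKM in V1PAKI at d4, the most positive member at 0.60. Of 23 FGF and MAP kinase feedback genes none passed 1, and the median was 0.11. Among 13 genes of BMP ligands and response none passed 1, with a median of -0.04. ID1, a direct target of BMP signalling chosen after its value was seen, went from 48.5 to 142 FPKM in Ctrl and from 13.3 to 156 in V1PAKI. BMP response genes moved up between d0 and d4 by a median of 1.24 in Ctrl and 1.51 in V1PAKI.

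**Figure D4:**
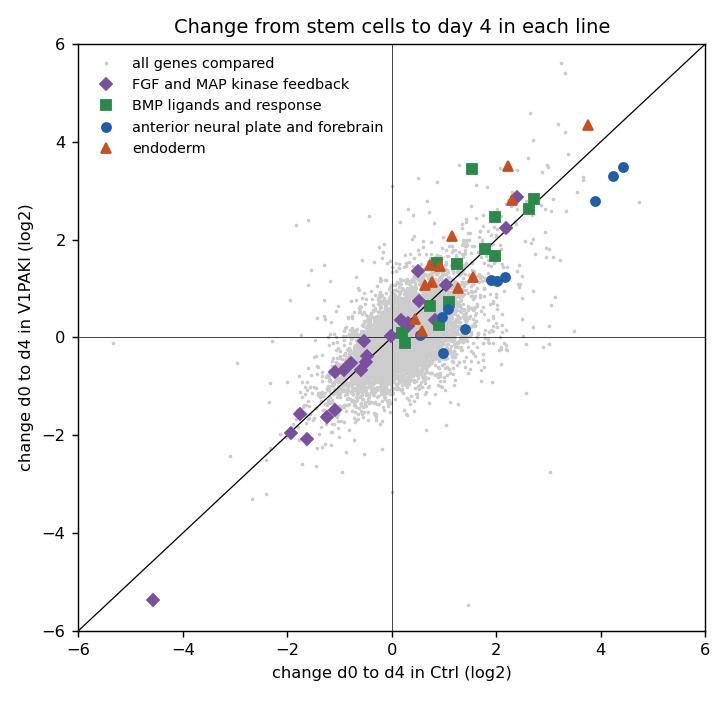
Change from d0 to d4 of each gene in V1PAKI (y axis) against Ctrl (x axis), both as differences of log2(FPKM + 1), with the line of equality and 4 gene lists in colour. Anterior genes lie under the line; FGF feedback and BMP genes lie on both sides of it, with DUSP6 at the lower left end and ID1 well above it, at 1.53 in Ctrl and 3.45 in V1PAKI.

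Each line's own course from d0 gives the scale of these differences. In Ctrl 780 genes rose by at least 1 from d0 to d4 and 280 fell, and in V1PAKI 477 rose and 530 fell. The SD of the change over genes was 0.57 in either line, against 0.32 for the difference between the lines at d4. Genes that rose or fell by at least 2 in both lines were taken next. This choice leaves out genes that rose less in V1PAKI, such as FEZF1, at 2.01 in Ctrl and 1.14 in V1PAKI. It equally leaves out genes that rose less in Ctrl, so it cannot show whether rising genes lag as a class. Of the 51 that rose, 28 were above Ctrl by any amount in V1PAKI at d4 and 23 below, with a median of 0.10. Among all genes compared, 59.7% were below Ctrl. Those 51 include 3 anterior genes, LHX5, LHX5-AS1 and SIX3, and without these the median was 0.11. Of 9 genes that fell by at least 2 in both lines, the median difference was -0.18.

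The d4 libraries take part in both of those choices. A set chosen from d0 and d10 alone used neither of them. A rise of at least 2 from d0 to d10 in both lines was seen in 86 genes. Of these, 53 were below Ctrl in V1PAKI at d4 by any amount, with a median of -0.17. Over all genes compared, 59.7% were below Ctrl at d4, a similar share, with a median of -0.05. The median change of the 86 genes by d4 was 1.77 in Ctrl and 1.40 in V1PAKI. Without the 6 anterior genes among them, 47 of 80 were below Ctrl, with a median of -0.13. The 29 genes that fell by at least 2 from d0 to d10 had a median difference at d4 of 0.0034. Genes that rose by d10 thus had a slightly negative median on day 4, nearer to 0 than that of the anterior list, and genes that fell by d10 had a median near 0.

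Among the 51 rising genes, those with the most negative differences were SIX3, LHX5-AS1, LHX5, AC012354.8, AC012354.3 and DLX5. DLX5, a homeobox gene of the border of the neural plate, was listed at 0 in both d0 libraries and at 5.50 in Ctrl and 3.04 FPKM in V1PAKI at d4. At the other end stood MAGEB17, AC078993.1, H19, AL353807.5, APOA2 and RPRM. RPRM, a p53 target that slows the cell cycle, was at 16.1 in Ctrl and 36.5 FPKM in V1PAKI. In stem cells RPRM was at 1.88 and 4.42 FPKM, so RPRM was above Ctrl at d0 as well.

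Endoderm and yolk sac genes were mostly above Ctrl. Of 12 compared, 9 were above Ctrl, 6 of them by at least 0.5, with a median of 0.46. Among all genes compared, 59.7% were below Ctrl and 3.37% were higher by at least 0.5. Of the 11 endoderm genes with at least 1 FPKM in both libraries, 8 were above Ctrl, with a median of 0.38. APOA2, a lipoprotein component made by liver and yolk sac, was at 4.07 in Ctrl and 11.7 FPKM in V1PAKI, a difference of 1.32 and the one past 1. The next genes were chosen after their values were seen. AFP, alpha-fetoprotein, was at 4.53 and 8.53 FPKM, and TTR, which carries thyroid hormone, at 1.22 and 3.22. APOA1, another lipoprotein component, was at 13.0 and 20.4 FPKM. Of the transcription factors compared, FOXA3 was at 10.9 and 12.3 FPKM, while GATA6 and HHEX were below Ctrl. GATA6 was at 1.40 in Ctrl and 1.01 FPKM in V1PAKI, and HHEX at 3.27 and 2.09. SOX17 and FOXA2, which define endoderm, were under 1 FPKM, at 0.250 and 0.568 for SOX17 and 0.221 and 0.374 for FOXA2. The part of such cells in the anterior difference was not tested.

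**Figure D5:**
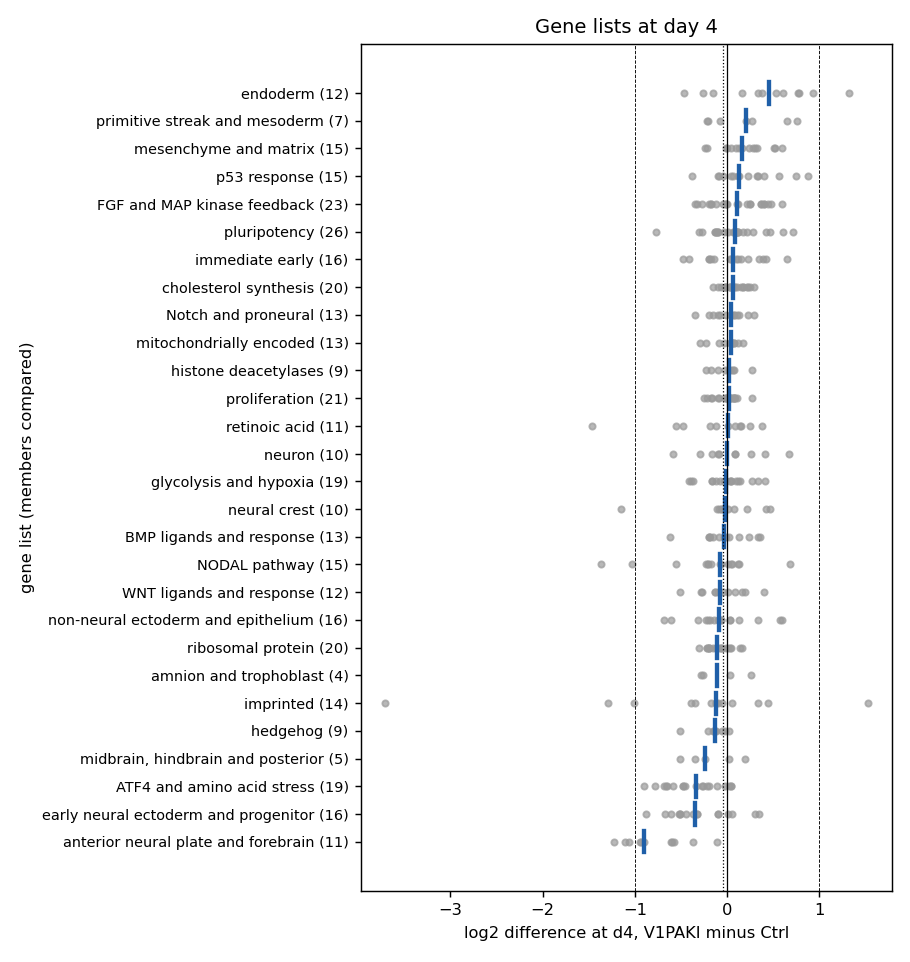
Difference at d4, V1PAKI minus Ctrl on the log2 scale (x axis), for each member (grey points) of the gene lists with at least 4 members compared (y axis, number compared in brackets), with the list median as a blue bar, the median of all genes as a dotted line and dashed lines at 1 and -1. Among the lists drawn, the anterior list has the lowest median, -0.90, and the endoderm list the highest, 0.46.

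Imprinted genes, which are expressed from one parental copy, differed in single members and not as a list. Of 14 compared, 3 were lower by at least 1 and 1 was higher, with a median of -0.12. Among all genes compared, 0.857% were lower by at least 1 and 0.797% higher. Of the 13 imprinted genes with at least 1 FPKM in both libraries, 2 were lower by at least 1 and 1 was higher. NLRP2, a maternal-effect gene of the early embryo, was at 26.8 in Ctrl and 0.143 FPKM in V1PAKI at d0, and at 14.7 and 0.200 at d4, a difference of -3.71. H19, an imprinted noncoding RNA, was at 7.76 in Ctrl and 24.3 FPKM in V1PAKI, while IGF2, its reciprocally imprinted neighbour chosen after its value was seen, was at 14.0 and 12.3. DLK1, a membrane protein of the Notch ligand family, was at 7.81 and 3.36 FPKM, and its difference of -1.01 was -0.93 under median-of-ratios scaling. NNAT, an imprinted gene of brain, went from 10.4 to 26.4 FPKM in Ctrl and from 27.7 to 10.2 in V1PAKI, in opposite directions.

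Most of the largest differences at d4 lay outside these lists. LINC01108, a noncoding RNA on chromosome 6, was at 0.721 in Ctrl and 4.67 FPKM in V1PAKI at d0. By d4 it was at 4.29 and 48.0 FPKM, a difference of 3.21 and the highest of all genes above 0 in both libraries. MAGEB17, of the MAGE family of germline genes on the X chromosome, was at 0.259 and 0.635 FPKM at d0, then at 11.5 and 68.8 FPKM at d4. AC078993.1, annotated over 3389 bases of MAGEB17 on the other strand, was at 21.2 and 101 FPKM, and with the strand unknown these genes may share reads. LCP1, an actin bundling protein of blood cells, was at 1.61 and 13.2 FPKM, and HHLA1 at 2.24 and 14.3. ABHD12B was at 1.178 in Ctrl and 8.73 FPKM in V1PAKI. The 6 other genes among the 12 highest of those above 0 in both libraries were AC027288.1, AC084375.1, AC008982.1, AL035078.4, AP002990.1 and RPS6P12.

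On the lower side NLRP2 led the genes above 0 in both libraries. MCCC2, a subunit of the carboxylase that breaks down leucine, was at 21.2 in Ctrl and 0.0705 FPKM in V1PAKI at d0 and at 3.54 and 0.0173 at d4. Like NLRP2, it was nearly absent from V1PAKI at both stages. LRRC61 was at 0.152 in Ctrl and 0.171 FPKM in V1PAKI at d0, and at 4.24 and 0.0562 at d4. CDK10, a cyclin-dependent kinase, was at 5.32 in Ctrl and 0.446 FPKM in V1PAKI at d4. NUDT16P1, a pseudogene, was at 3.28 and 0.0251 FPKM. Also among the lowest were RAB4B-EGLN2, RPL36A-HNRNPH2, AC023055.1, AL358113.1, AC009065.9 and AC074050.3.

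Several of these names join 2 neighbouring genes, and such read-through entries differed often. Of 52 read-through names compared, 14 passed 1, or 26.9%, beside 0.863% of 11475 protein coding genes. Long noncoding genes passed 1 in 49 of 911 cases, or 5.38%, and short noncoding genes in 29 of 185, or 15.7%. In all, 42 of the genes compared were listed at 0 in one of the d4 libraries, which for an FPKM file can be a failed estimate. TMEM189-UBE2V1 was at 17.05 FPKM in Ctrl and listed at 0 in V1PAKI, with ARPIN-AP3S2, FMC1-LUC7L2 and AL138895.1 listed at 0 there too. URGCP-MRPS24 was listed at 0 in Ctrl and at 7.53 FPKM in V1PAKI, and AL713999.1, BLOC1S5-TXNDC5 and MRPL50P1 were also listed at 0 in Ctrl.

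Some of the differences at d4 were there at d0, in libraries that share no sample with the d4 pair. At d0, 3.73% of the genes compared were higher by at least 1 and 0.82% lower. Of the 107 genes higher at d4, 19 were higher by at least 1 at d0, or 17.8% of the d4 genes and 3.73% of the 509 genes higher at d0, and 6 were lower by at least 1. Of the 115 lower genes, 20 were lower by at least 1 at d0, or 17.4% of the d4 genes and 17.9% of the 112 lower at d0, and 8 were higher by at least 1. Across the 13426 genes the correlation of both differences was 0.24 (Pearson's r). Genes are not independent replicates and the lines are the same in both comparisons, so this is a description. FEZF1, LEFTY1 and LEFTY2 were not among the genes past 1 at d0, while NLRP2, MCCC2 and LINC01108 were. SIX3, at 0.101 in Ctrl and 0 FPKM in V1PAKI at d0, was under the floor and could not have been counted there.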

How the data were processed

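Bulk RNA sequencing libraries of 10 samples were used, 1 per line and stage, made from Trizol RNA with Illumina's TruSeq kit for RNA, as the labels' protocols state. Deposited by the authors were FPKM values, normalized by transcript length and library total. The submitters' processing notes list HISAT2 2.1.0, Cufflinks and cutadapt 1.18 and the build GRCh38. For the annotation, any filter and strand, the setting is not given in the sources used here. Depth is unknown from FPKM, so precision cannot be stated.

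Values were compared as log2(FPKM + 1) for genes with at least 1 FPKM in either d4 library, with Python 3.11.15, pandas 2.3.3 and numpy 2.4.6. No test was run, since each line has 1 library at d4. Gene positions came from GENCODE 29, which held 98.4% of the genes compared by symbol. The 30 gene lists hold 565 distinct genes, 564 of them in the table. Members and lists were chosen with earlier results of these data known. Named are the title's genes, the 12 largest differences each way, 4 genes each way listed at 0, the 6 extremes each way among genes that moved by at least 2 in both lines, and list members past 1. Members of the anterior, retinoic acid, pluripotency, NODAL and FGF lists above 1 FPKM, and the highest member of a list below 1 FPKM, could also be named. Genes outside this rule were chosen after their values were seen, and some genes under the rule are not reported here. The scripts were tested on simulated data. Alternatives, 1 of them chosen after seeing the data, were other pseudocounts, floors, thresholds and scalings, and a correction for gene length and GC content with statsmodels 0.14.6.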

Additional observations from a re-analysis of the deposited data

Results flagged for a closer look

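Among the genes named by the fixed rule, 7 had a change from d0 to d4 past 1 upward in one line and downward in the other. Many genes were named for a large difference at d4, which favours such cases. How many of all genes compared did so is not given here. There was 1 library at each point, and the difference was not tested. Of these 7, only NNAT has a symbol that is neither clone-based nor a read-through name. It rose by 1.26 in Ctrl and fell by 1.35 in V1PAKI, so the changes differed by -2.61 (V1PAKI minus Ctrl, log2 scale). The remaining 6 are clone-based or read-through names. TMEM189-UBE2V1 differed most, by -6.93, with 43.5 FPKM at d0 and 0 listed at d4 in V1PAKI. For AC023055.1 the changes differed by -5.78, for ARPIN-AP3S2 by -3.69 and for AC009065.9 by -2.83. In the other direction AL713999.1 differed by 4.14 and AC008982.1 by 3.99.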

How the results depend on the processing

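No paired analysis was possible because each line has 1 library at d4, and no library could be left out. The counts of higher and lower genes, 107 and 115, depend on the settings. They were 239 and 324 with a pseudocount of 0.1 FPKM. As TPM they were 206 and 254, but TPM also raises every value against the same pseudocount of 1. Median-of-ratios scaling gave 128 and 92, and removal of a trend on length and GC content 104 and 96. A floor of 5 FPKM gave 52 and 34, and a floor of 1 FPKM in both libraries, chosen after seeing the data, 63 and 31. With a threshold of 0.5 they were 452 and 600, and with a threshold of 2 they were 17 and 15. The anterior median was -0.45 with no floor, over the members above 0 in either library, and ranged from -0.99 to -0.45 over 8 alternatives. The 11 anterior genes stayed below 0 in 44 of 44 values recomputed. A change of pseudocount cannot alter a sign, and the scalings shifted all genes little, so few of these values could have changed sign. Of 64 medians of gene lists, 63 moved by less than the spread of their members. The exception was the anterior list, which went from -0.90 to -0.45 with no floor. The medians of the retinoic acid, NODAL and BMP lists, all near 0, took either sign. The median of all genes was -0.048 as deposited, -0.041 as TPM and 0.034 after median-of-ratios scaling. Of 258 values of named genes, 59 moved by more than the SD over genes of 0.32. None past 1 changed sign; HDAC10 went from -0.02 to 0.05 with median-of-ratios scaling and PLA2G3 from 0.02 to -0.02 with the trend removed. Unknown depth limits every value under a few FPKM, where an estimate of 0 may be a failed one.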

Other observations

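The genes in this paragraph and the next were chosen after their values were seen. Noncoding RNAs and endogenous retrovirus transcripts typical of pluripotent cells differed by member. LINC-ROR was at 0.665 in Ctrl and 3.36 FPKM in V1PAKI at d4, and LINC00458 at 1.82 and 8.00. LINC01356 was at 6.33 and 28.6 FPKM. ESRG, the most abundant of them, was at 377 in Ctrl and 380 FPKM in V1PAKI, so it was alike in both lines. GPR143, a receptor of pigment cell organelles, was at 14.0 and 45.9 FPKM.

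Entries of the miR-302 cluster, microRNAs of pluripotent cells, were below Ctrl in 6 of 6 cases at d4, with a median of -1.04, beside 59.7% of all genes. These 6 are the microRNAs of a single cluster with their host gene, so they are not separate cases. At d0 2 of the 6 were below Ctrl and the median was 0.50. MIR302D was at 40.4 in Ctrl and 14.7 FPKM in V1PAKI at d4. The host gene MIR302CHG was at 153 and 129 FPKM, a difference of -0.25 and the smallest of the 6. These are values of a library made for longer RNA. The signal recognition particle RNAs RN7SL1 to RN7SL3 were above Ctrl in 3 of 3 cases, with a median of 1.31 at d4 and 2.42 at d0. Of 22 mitochondrial tRNA genes 6 were higher by at least 1, beside 0.797% of all genes, and 5 were lower by at least 0.5. Their median was 0.62 at d4 and 0.68 at d0, while their summed level at d4 was 7684 FPKM in Ctrl and 6336 in V1PAKI. RN7SL1 was at 33.3 in Ctrl and 86.9 FPKM in V1PAKI. Amino acid stress genes under ATF4 were below Ctrl in 16 of 19 cases at d4, with a median of -0.34, and in 18 of 19 at d0. Of all genes compared, 59.7% were below Ctrl at d4 and 37.8% at d0. PSAT1, an enzyme of serine synthesis, was at 140 in Ctrl and 81.2 FPKM in V1PAKI at d4.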
